A study of Bos grunniens and Bos grunniens x Bos taurus with 6 samples.

Results

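Heat shock proteins, their co-chaperones and the chaperonins were compared between yak (Bos grunniens) and cattle-yak, a cross of yak with cattle, in longissimus dorsi, a long back muscle. The genes were chosen by symbol: HSP90, HSPA, HSPB, HSPD, HSPE and HSPH names, the DNAJA, DNAJB and DNAJC families, CCT2 to CCT8 names, the BAG family, STIP1, UNC45B, HSF1 and HSF2, without HSPB1, HSPB8 and BAG3. Where several gene identifiers carried a symbol, the identifier with most reads in rows carrying that symbol was taken. This gave 76 genes of the 31044 in the deposited table, with 77 symbols, since HSPA1A and HSPA1B shared 1 identifier. Of these, 68 had at least 30 reads over all 6 libraries and were tested. At that limit, BAG4 with 31 reads was inside and DNAJC28 with 29 was outside. The yak group and the cattle-yak group had 3 libraries each, numbered 1 to 3 in the labels. Neither group carries a treatment, strain or allele in the labels, and the sources used here do not give age, sex, rearing or the direction of the cross. RNA was read as long nanopore cDNA reads, so a read can be assigned to a transcript. The labels do not tie the libraries of a group to separate animals, so the spread between them may be partly technical.

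Chaperones bind unfolded protein and let it fold. HSP70 proteins cycle between ATP and ADP states, J-domain proteins (the DNAJ families) bring them clients and drive ATP hydrolysis, and BAG proteins and HSPH1 help to release the nucleotide. STIP1 passes clients from HSP70 to HSP90, which completes the folding of kinases, receptors and, together with UNC45B in striated muscle, the myosin head. Small heat shock proteins hold unfolding protein without ATP, the CCT ring folds actin and tubulin, and HSPD1 with HSPE1 forms the chaperonin of mitochondria. HSF1 is the main transcription factor of the heat shock response, in which HSPA1A, HSPA1B, HSPA6, DNAJB1 and HSPH1 are induced by stress.

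The libraries held 2350851 to 2769106 counted reads, and the 76 genes took 0.623% to 0.898% of them. Values per gene are counts per 1000000 reads (CPM) after TMM scaling, which allows for differences in library composition. Summed over the 76 genes they came to 7388 ± 573 CPM in yak and 7429 ± 914 CPM in cattle-yak (SD, n = 3 each). All 10 skeletal muscle markers were found, with a summed level of 200062 to 223392 CPM in yak and 146144 to 158410 CPM in cattle-yak. Of the 10, 2 were higher and 4 lower in cattle-yak, among them MYH1 and MYH2, which share 1 identifier. All 6 macrophage markers were found and summed to 15.6 to 31.1 CPM in yak and 37.5 to 86.4 CPM in cattle-yak, with 2 of 5 tested higher. The 6 fibroblast markers summed to 407 to 501 CPM in yak and 219 to 390 CPM in cattle-yak, with 2 of 5 tested lower. The 3 adipocyte markers that were named, of 6, summed to 136 to 180 CPM in yak and 69.6 to 120 CPM in cattle-yak, and neither of the 2 tested passed. The 6 endothelial markers summed to 28.5 to 31.7 CPM in yak and 30.5 to 59.0 CPM in cattle-yak, with 1 of 3 tested, VWF, higher. The erythroid markers HBB and HBA, the 2 of 4 that were named, summed to 2.70 to 25.1 CPM in yak and 0.359 to 2.32 CPM in cattle-yak, and both were lower in cattle-yak. The 5 smooth muscle markers summed to 142 to 174 CPM in yak and 130 to 177 CPM in cattle-yak. All 5 were tested and none passed. The 4 lymphocyte markers that were named, of 5, summed to 0.88 to 5.85 CPM in yak and 1.55 to 10.8 CPM in cattle-yak. The 1 tested, CD3E, did not pass. Over all genes tested, 4.92% were higher and 5.06% lower. The part of the markers in the results below was not tested.

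Chaperone genes passed the test about as often as other genes, and those that passed were 6 J-domain co-chaperones, 3 in each direction, and UNC45B. In cattle-yak, 3 of the 68 tested genes rose (DNAJA3, DNAJB5 and DNAJC1), 4 fell (DNAJA1, DNAJB1, DNAJC12 and UNC45B) and 61 did not pass. The test was edgeR's quasi-likelihood test with Benjamini-Hochberg adjustment over all 10397 genes with at least 30 reads. Over all these genes 9.98% passed, 4.92% higher and 5.06% lower, against 10.3% of the chaperone genes. The median log2 fold change (cattle-yak minus yak) was 0.02 for the chaperone genes and 0.04 for all genes tested. The groups did not overlap in 10 of the 68 genes with cattle-yak higher, where all genes gave 15.2%, and in 8 with cattle-yak lower, where all genes gave 14.6%. As bulk tissue was measured, fewer cells of a type and less RNA per cell cannot be told apart. Without TMM scaling, at library size alone, 7 chaperone genes rose and 1 fell. Over all genes that scaling gave 7.21% higher and 3.03% lower, and the median moved to 0.23. That scaling kept DNAJA3, DNAJB5, DNAJC1 and UNC45B, lost DNAJA1, DNAJB1 and DNAJC12, and added CCT2, DNAJC24, HSP90AB1 and HSPE1. With 1 library left out, 2 to 5 chaperone genes passed. Without yak 1 or yak 3 the count was 2, both among the 7. Without yak 2 it was 3, of which 2 were among the 7. Without cattle-yak 1 it was 4, all among the 7. Without cattle-yak 2 it was 4, with 3 among the 7, and without cattle-yak 3 it was 5, with 2 among the 7 and DNAJB4, DNAJC11 and HSPA2 new.

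By family, 6 of the 31 J-domain genes tested passed (19.4%, against 9.98% of all genes tested). Of these, 3 were higher (9.68%, against 4.92%) and 3 lower (9.68%, against 5.06%). None of the 31 tested HSP90, HSP70, small heat shock, HSP60, HSP10, CCT and BAG genes passed edgeR's test (0%, against 9.98%). At an unadjusted p under 0.05, 6 of these 31 stood out (HSPA2, HSPA6, HSPA9, HSP90AB1, CCT2 and BAG6), where 25.1% of all genes tested did. DESeq2 called 1 of the 31, HSPA6, and limma-voom 0. Whether these 31 genes differ from the J-domain genes in how often they pass was not tested.

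**Figure D1:**
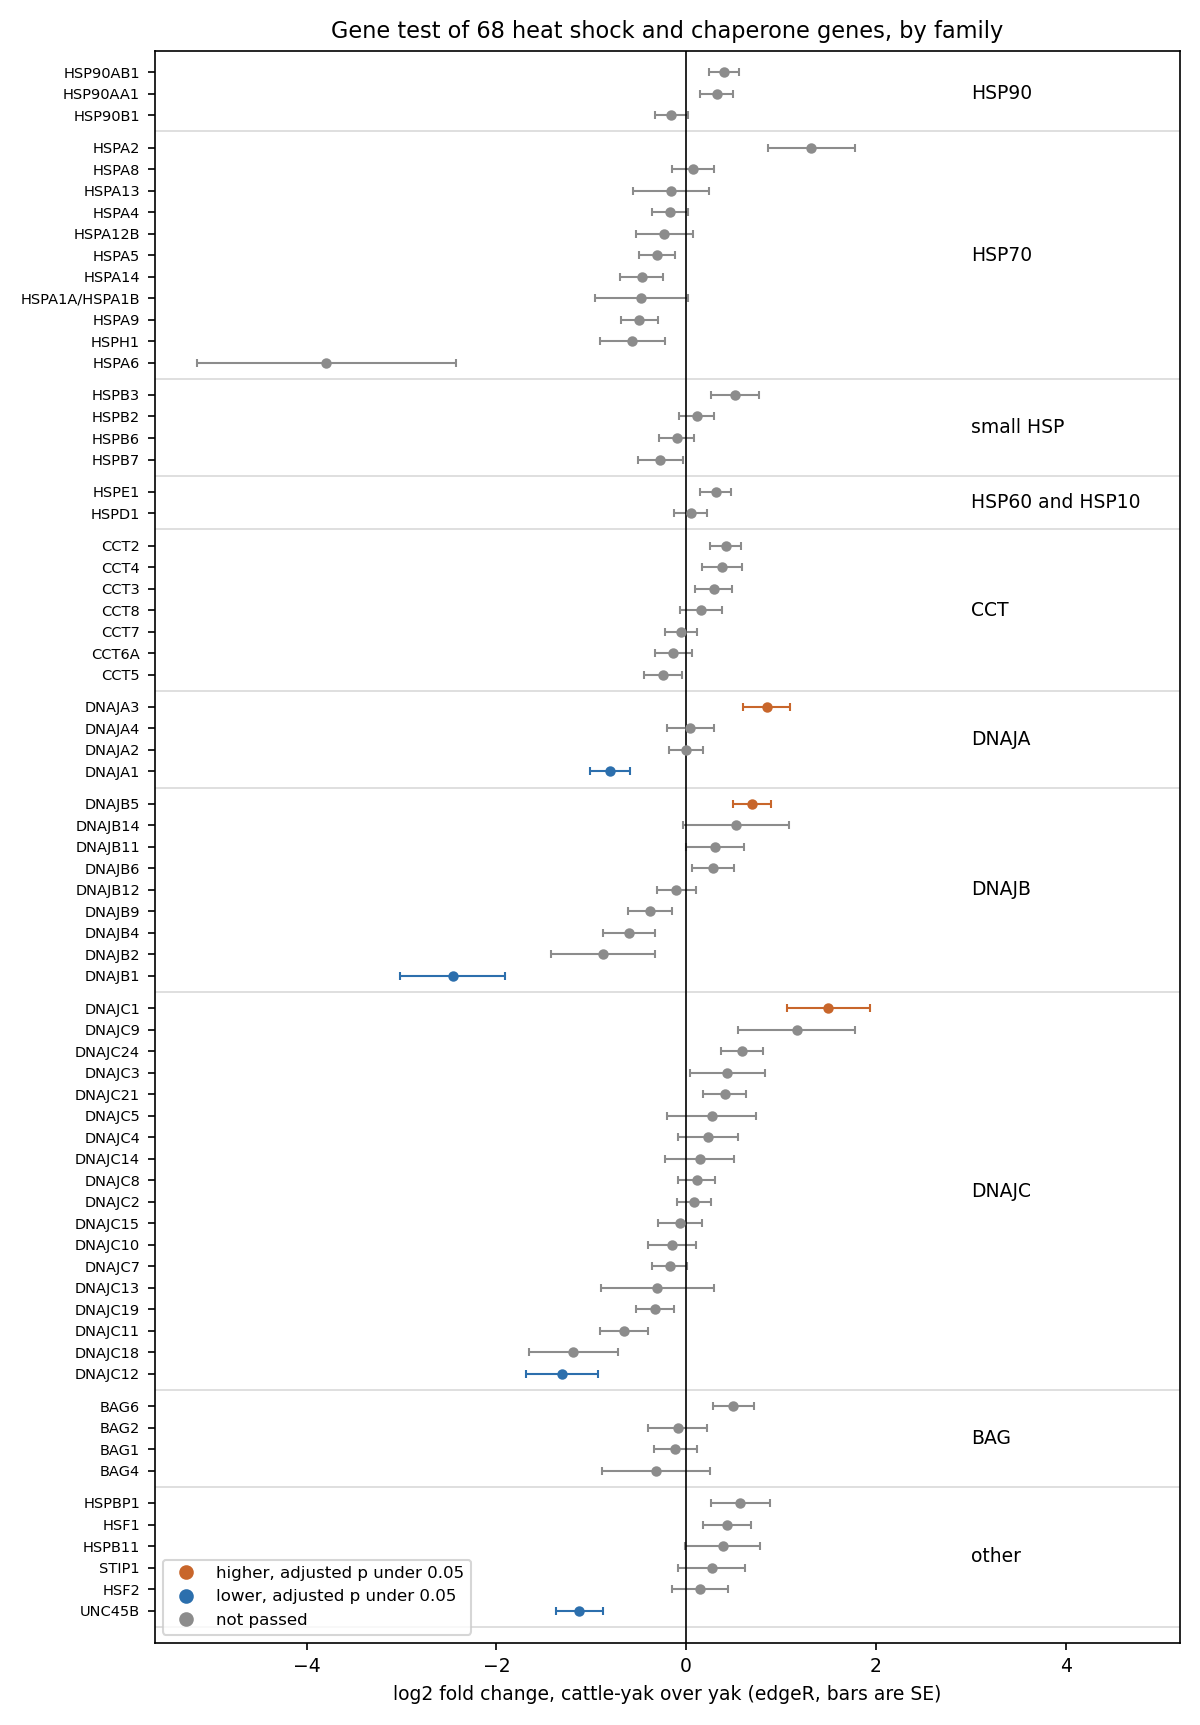
Log2 fold change (cattle-yak minus yak, horizontal axis) of each of the 68 tested chaperone genes, by family, with bars of 1 standard error. Orange (higher) and blue (lower) points passed edgeR's test, 3 to the right of 0 and 4 to the left, grey points did not, and HSPA6 at -3.79 has the widest bar among the genes that did not pass.

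Among the J-domain genes that fell, DNAJB1 had the widest difference. DNAJB1 (ENSBGRG00000000944), the stress-inducible partner of cytosolic HSP70, stood at 129, 31.5 and 61.7 CPM in yak 1, 2 and 3 and at 9.66, 15.2 and 15.4 CPM in cattle-yak 1, 2 and 3. The lowest yak library was above the highest cattle-yak library, and yak 1 was far above the other yak libraries. The log2 fold change came to -2.46 ± 0.55 (SE, edgeR adjusted p = 0.042), with means of 74.2 ± 50.1 CPM in yak and 13.4 ± 3.27 CPM in cattle-yak (SD, n = 3). Without yak 1 the difference was -1.79 (edgeR adjusted p = 0.0056). The call was lost without yak 3 (edgeR adjusted p = 0.080) and without cattle-yak 1, 2 or 3 (0.14, 0.17 and 0.12), although the log2 fold change stayed between -2.25 and -2.57 in these fits. Only 22.4% of the gene's reads lay in rows that carried its symbol, and these alone gave -2.24 (edgeR adjusted p = 0.017).

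DNAJA1 (ENSBGRG00000001318), a farnesylated cytosolic partner of HSP70, stood at 71.3, 56.2 and 75.6 CPM in yak and at 39.0, 30.4 and 47.0 CPM in cattle-yak. Every yak library was above every cattle-yak library. The log2 fold change came to -0.80 ± 0.21 (edgeR adjusted p = 0.024). It did not pass without yak 1, yak 3 or cattle-yak 2 (edgeR adjusted p = 0.076, 0.11 and 0.084). DNAJC12 (ENSBGRG00000007326), which assists the aromatic amino acid hydroxylases, stood at 10.6, 13.4 and 15.3 CPM in yak and at 3.48, 8.75 and 3.59 CPM in cattle-yak, again with no overlap. Its log2 fold change came to -1.31 ± 0.38 (edgeR adjusted p = 0.041). This call was lost without any 1 library other than cattle-yak 2 (edgeR adjusted p = 0.059 to 0.14) and in DESeq2 (0.075).

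Of the J-domain genes that rose, DNAJB5 had the most reads. DNAJB5 (ENSBGRG00000013654), which belongs to the same subgroup as DNAJB1, stood at 103, 79.5 and 132 CPM in yak and at 183, 148 and 176 CPM in cattle-yak. The groups did not overlap, with means of 105 ± 26.3 and 169 ± 18.4 CPM (SD, n = 3) and a log2 difference of 0.69 ± 0.20 (edgeR adjusted p = 0.035). The call was lost in the fits that left out yak 1 (edgeR adjusted p = 0.097), yak 2 (0.14), cattle-yak 1 (0.065) or cattle-yak 3 (0.071). DNAJA3 (ENSBGRG00000015126), the J-domain protein of the mitochondrial matrix, stood at 14.1, 18.6 and 19.8 CPM in yak and at 29.4, 26.2 and 38.7 CPM in cattle-yak. Its log2 fold change came to 0.85 ± 0.24 (edgeR adjusted p = 0.038), lost without any 1 yak library or without cattle-yak 3 (edgeR adjusted p = 0.076 to 0.14) and in DESeq2 (0.088). DNAJC1 (TALONG000032297), a J-domain protein of the endoplasmic reticulum membrane, rested on only 70 reads. It stood at 3.08, 1.73 and 2.25 CPM in yak and at 5.79, 7.23 and 7.17 CPM in cattle-yak, with no overlap. Its log2 fold change came to 1.50 ± 0.44 (edgeR adjusted p = 0.041), lost without any 1 library other than cattle-yak 1 (edgeR adjusted p = 0.061 to 0.13) and in DESeq2 (0.14).

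**Figure D2:**
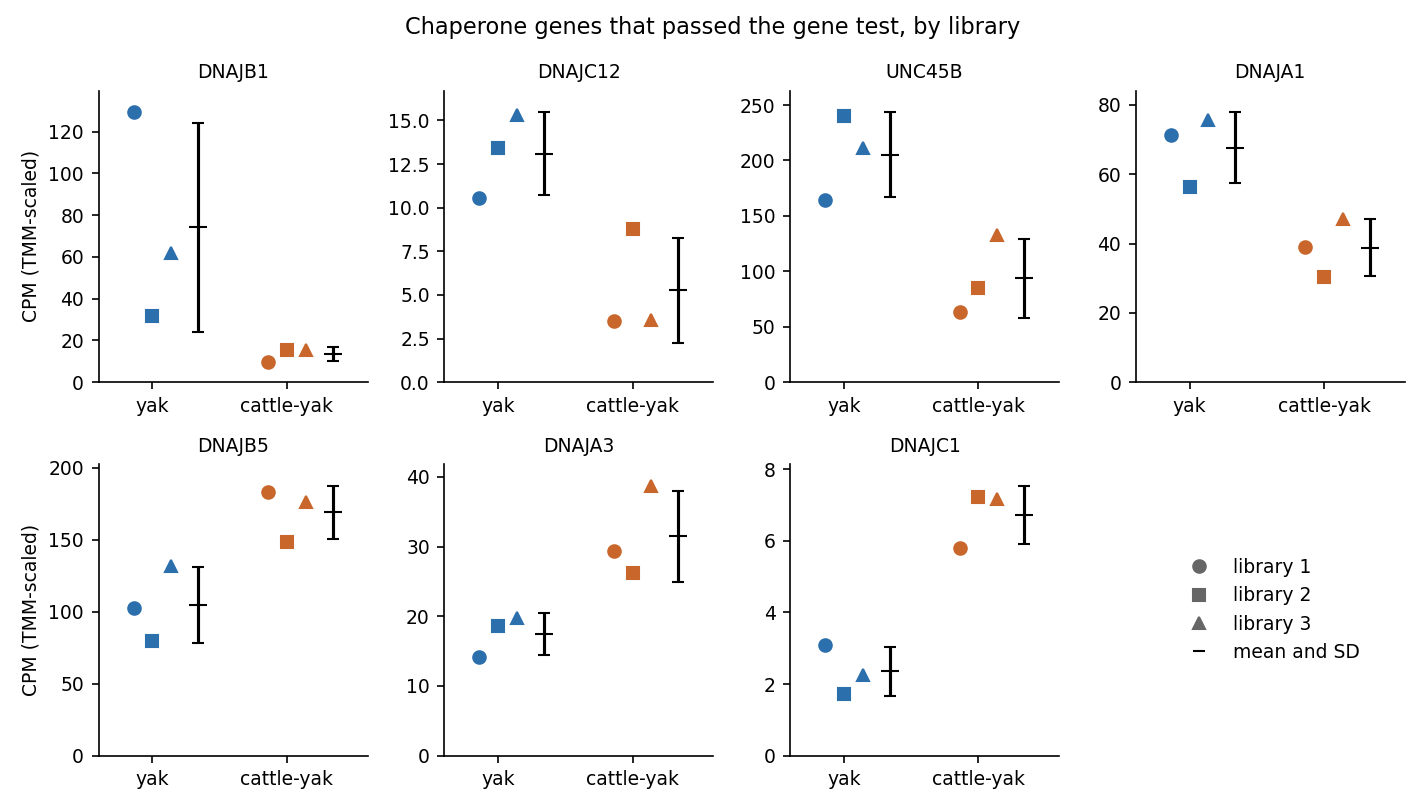
TMM-scaled CPM (vertical axes, linear, from 0) of the 7 chaperone genes that passed edgeR's test, by library, with the mean and SD of each group. In every panel the yak libraries and the cattle-yak libraries lie apart, and yak 1 stands at 129 CPM for DNAJB1.

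DNAJA1 had a second gene identifier (ENSBGRG00000013178) whose reads behaved in the opposite way. All 117 of its reads were in rows named DNAJA1. It had 1, 1 and 1 reads in yak and 45, 32 and 37 reads in cattle-yak. Per counted read that is a ratio of 36.7, with a 95% exact interval of 12.3 to 180.7 that covers counting error only, and edgeR gave an adjusted p of 2.5e-05. With both identifiers summed, DNAJA1 had 163, 131 and 169 reads in yak and 146, 112 and 168 reads in cattle-yak, which overlap. The log2 fold change of the sum was -0.35 ± 0.20 (edgeR adjusted p = 0.29), so the call on DNAJA1 held for the first identifier and not for the symbol. Whether the pair are copies of the gene or places to which the reads of 1 gene were divided was not tested. Cattle-yak also carry cattle sequence, and whether this changed the identifier that reads were given was not tested.

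**Figure D3:**
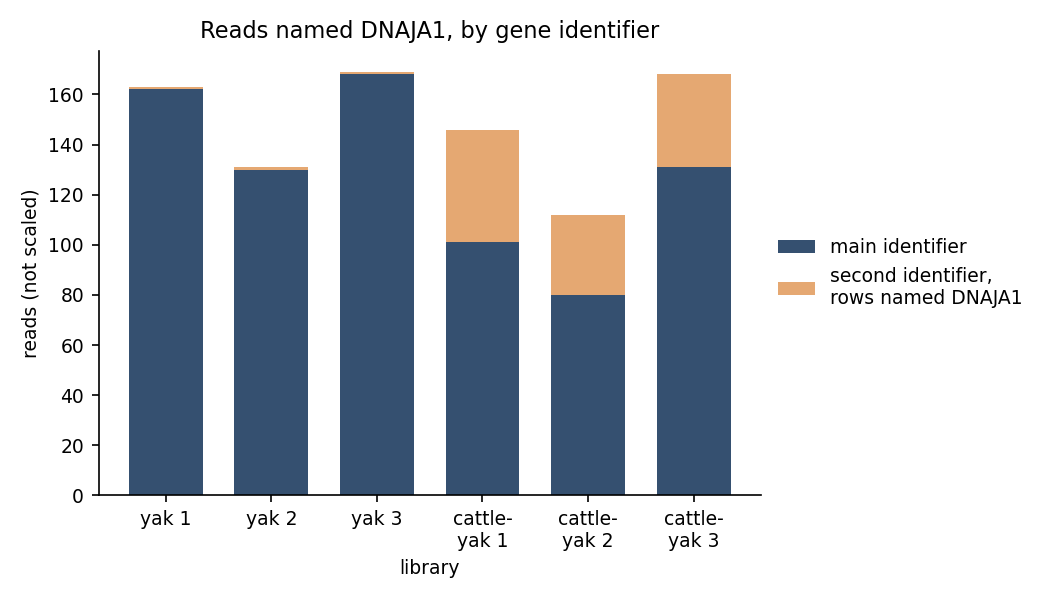
Reads per library (vertical axis) of the 2 identifiers named DNAJA1 and of their sum, in yak and cattle-yak. In these unscaled reads the first identifier has 162, 130 and 168 in yak and 101, 80 and 131 in cattle-yak. Cattle-yak 3 thus lies just above yak 2. The second identifier has 1 read in each yak library and 32 to 45 in cattle-yak, and the sums overlap.

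The other J-domain genes gave no call. DNAJB4, another stress-inducible partner of HSP70, stood at 226, 164 and 239 CPM in yak and at 90.4, 119 and 205 CPM in cattle-yak. The groups overlapped, through cattle-yak 3, and the log2 fold change came to -0.60 ± 0.28 (edgeR adjusted p = 0.21). Without cattle-yak 3 it passed, at -0.97 (edgeR adjusted p = 0.015), as it did with no minimum of reads (0.019). DNAJA2, which like DNAJA1 serves cytosolic HSP70, had group means of 144 ± 15.8 and 144 ± 22.0 CPM. DNAJC7, which binds both HSP70 and HSP90, had 110 ± 13.2 and 97.8 ± 16.2 CPM. DNAJC19, a part of the mitochondrial protein import motor, had 142 ± 13.5 and 113 ± 28.7 CPM, and 237 of its 1876 reads were in rows named FXR1. DNAJC24, which takes part in diphthamide synthesis, was higher in every cattle-yak library (32.6, 37.6 and 36.5 against 63.0, 37.7 and 59.5 CPM), at 0.59 ± 0.22 (edgeR adjusted p = 0.11; 0.021 without cattle-yak 2). DNAJC11, a mitochondrial membrane protein, was lower in every cattle-yak library (29.0, 27.2 and 33.8 against 15.5, 15.6 and 25.8 CPM), at -0.66 ± 0.25 (edgeR adjusted p = 0.11; 0.043 without cattle-yak 3). DNAJC24 and DNAJC11 are named here after their values were seen. The J-domain genes that did not pass lay between -1.19 (DNAJC18) and 1.16 (DNAJC9) on the log2 scale.

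None of the 11 tested HSP70-class genes passed edgeR's test. Of these, 9 had a negative and 2 a positive log2 fold change, where 5475 of all 10397 genes tested had a positive one. Among the 9, HSPA4, HSPA12B, HSPA13 and HSPA1A/HSPA1B lay within 1 SE of 0. HSPA8, the constitutive cytosolic HSP70, stood at 860, 759 and 937 CPM in yak and at 1162, 581 and 942 CPM in cattle-yak. The cattle-yak libraries spanned the yak values on both sides, and the log2 fold change came to 0.07 ± 0.22 (edgeR adjusted p = 0.88). HSPA9, the mitochondrial HSP70, stood at 221, 298 and 275 CPM in yak and at 216, 138 and 208 CPM in cattle-yak. Every yak library was above every cattle-yak library, but by as little as 221 against 216 CPM, and the log2 fold change came to -0.50 ± 0.20 (edgeR adjusted p = 0.12). HSPA4, a nucleotide exchange factor for HSP70, had 71.7 ± 9.70 CPM in yak and 63.5 ± 9.58 CPM in cattle-yak.

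The stress-inducible genes HSPA6 and HSPA1A/HSPA1B, described here after their values were seen, varied widely among the yak libraries. HSPA6 stood at 39.6, 2.16 and 6.75 CPM in yak and at 0.386, 1.14 and 1.79 CPM in cattle-yak, that is 90, 5 and 15 reads against 1, 3 and 5 reads. Yak 1 held 90 of its 119 reads, yet the lowest yak library was still above the highest cattle-yak library. The log2 fold change came to -3.79 ± 1.37 (edgeR adjusted p = 0.16). The gene passed in DESeq2 (adjusted p = 0.042), in edgeR without robust dispersion (adjusted p = 0.022) and in edgeR without yak 2 (adjusted p = 0.025), while limma-voom gave 0.25. Without yak 1 it fell below the minimum of reads. HSPA1A/HSPA1B stood at 337, 92.9 and 158 CPM in yak and at 171, 145 and 107 CPM in cattle-yak, with yak 1 highest and yak 2 lowest of all 6 libraries. The log2 fold change came to -0.47 ± 0.49 (edgeR adjusted p = 0.61) and turned to 0.17 without yak 1 (edgeR adjusted p = 0.75). These near-identical copies cannot be told apart, and reads could also be split between them and HSPA6.

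Yak 1 was thus the highest yak library for DNAJB1, HSPA6 and HSPA1A/HSPA1B alike, the 3 chaperone genes with the largest coefficient of variation in yak (67.5%, 126% and 64.5%). The median over the tested chaperone genes was 18.2% in yak and 20.8% in cattle-yak, against 24.6% and 26.6% over all genes. Over the 68 tested chaperone genes, yak 1 was the highest yak library for 19 and the lowest for 28, while yak 3 was the highest for 32. HSPH1, also stress-inducible, did not single out yak 1, with 15.4, 7.78 and 15.8 CPM in yak and 10.4, 6.09 and 9.68 CPM in cattle-yak. HSF1, the regulator, had 17.6, 23.8 and 17.6 CPM in yak and 33.6, 26.2 and 19.7 CPM in cattle-yak, at 0.43 ± 0.26 (edgeR adjusted p = 0.33). HSF2, a related factor, had 18.9, 11.2 and 15.8 CPM in yak and 12.4, 16.0 and 22.2 CPM in cattle-yak.

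HSPA2, a testis-enriched HSP70 with low counts here, was the member nearest to the threshold from outside. It stood at 3.52, 3.46 and 5.85 CPM in yak and at 12.7, 15.2 and 4.30 CPM in cattle-yak, with cattle-yak 3 inside the yak range. The log2 fold change came to 1.32 ± 0.46 (edgeR adjusted p = 0.082), and it passed without cattle-yak 3, at 1.73 (edgeR adjusted p = 0.013). A second identifier named HSPA2 had 0, 5 and 6 reads in yak and 23, 18 and 11 reads in cattle-yak, and with both summed the value was 1.54 ± 0.42 (edgeR adjusted p = 0.030).

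**Figure D4:**
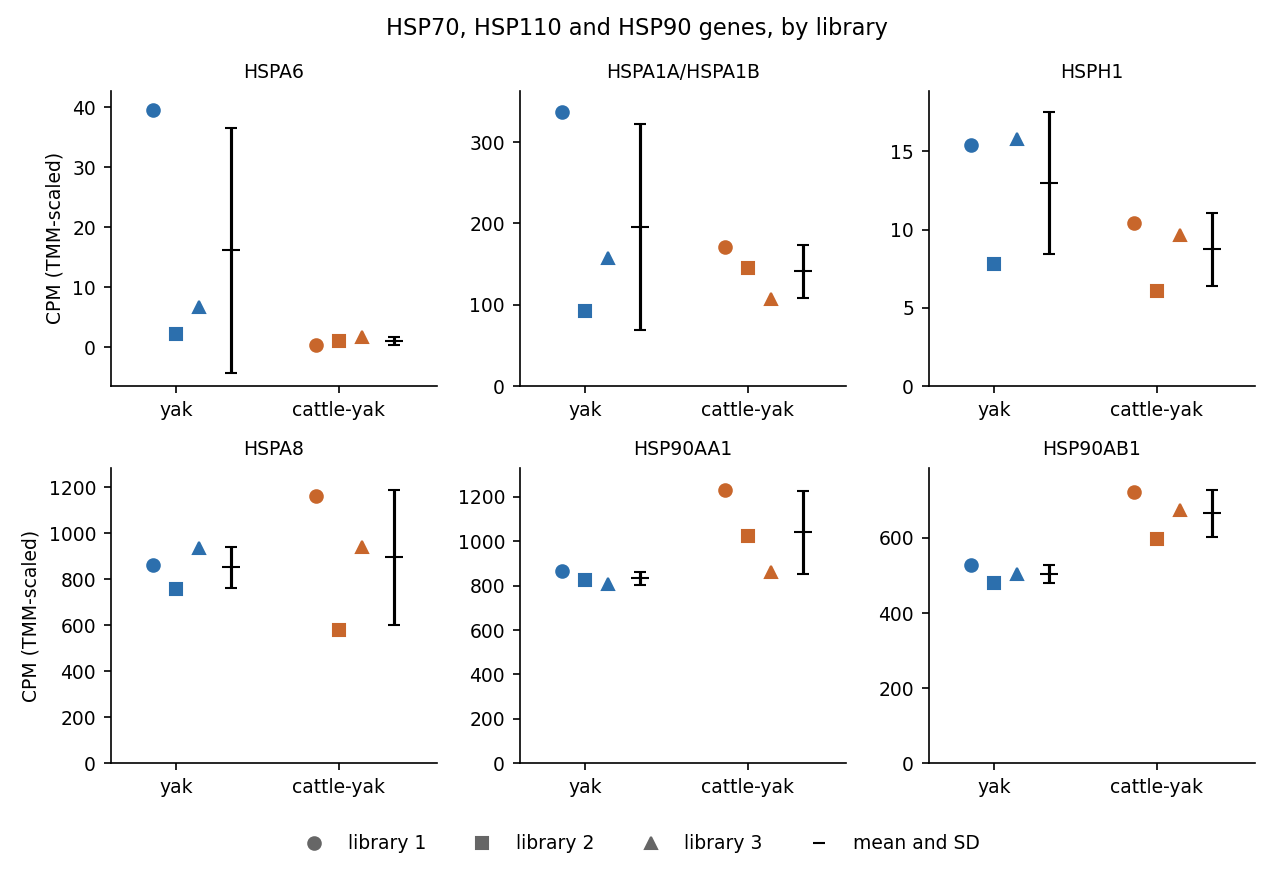
TMM-scaled CPM (vertical axes, linear) of 4 HSP70 and HSP110 genes and of the cytosolic HSP90 genes, by library, with the mean and SD of each group. Yak 1 stands apart for HSPA6 and HSPA1A/HSPA1B and not for HSPH1 or HSPA8, and the groups do not overlap for HSP90AB1.

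The HSP90 genes did not pass as genes. HSP90AB1, the constitutive cytosolic form, stood at 527, 480 and 505 CPM in yak and at 723, 598 and 674 CPM in cattle-yak. The groups did not overlap, with a log2 difference of 0.40 ± 0.16 (edgeR adjusted p = 0.13). HSP90AA1, the inducible cytosolic form, stood at 866, 823 and 806 CPM in yak and at 1230, 1025 and 861 CPM in cattle-yak, where cattle-yak 3 lay inside the yak range. Its log2 fold change came to 0.32 ± 0.17 (edgeR adjusted p = 0.26). HSP90B1, the form of the endoplasmic reticulum, had 87.7 ± 11.2 and 78.7 ± 5.45 CPM.

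UNC45B, the muscle chaperone that folds the myosin head together with HSP90, was lower in cattle-yak. UNC45B (ENSBGRG00000022051) stood at 164, 240 and 211 CPM in yak and at 63.4, 85.2 and 133 CPM in cattle-yak. Every yak library was above every cattle-yak library. The means were 205 ± 38.4 and 93.8 ± 35.5 CPM (SD, n = 3) and the log2 fold change came to -1.13 ± 0.25 (edgeR adjusted p = 0.013). It passed without yak 1 (edgeR adjusted p = 0.015), yak 3 (0.0496), cattle-yak 1 (0.023) or cattle-yak 3 (0.0014), and not without yak 2 (0.053) or cattle-yak 2 (0.078). The summed skeletal muscle markers were also lower in cattle-yak (146144 to 158410 against 200062 to 223392 CPM). ACTA1 alone had means of 114766 CPM in yak and 70963 CPM in cattle-yak. Only 21192 of the 1351809 reads at its identifier lay in rows carrying the ACTA1 symbol. Of the 10 markers 4 were lower, while TTN (0.59, edgeR adjusted p = 0.040) and DES (0.66, 0.021) were higher. The part of the markers in this result was not tested. STIP1, the adaptor between HSP70 and HSP90, had 7.05 ± 1.97 and 8.52 ± 2.06 CPM at its own identifier, at 0.27 ± 0.35 (edgeR adjusted p = 0.68). A second identifier named STIP1 had 25, 30 and 21 reads in yak and 13, 13 and 12 reads in cattle-yak, at -1.22 ± 0.33 (edgeR adjusted p = 0.028). The sum did not pass, at -0.45 ± 0.27 (edgeR adjusted p = 0.32). Whether STIP1 counted as passing at a single identifier thus depended on which of the pair was taken.

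Among 16 further co-chaperones and cofactors of HSP90, 14 were tested, of which 1 rose, 1 fell and 12 did not pass. Thus 14.3% of the list passed, against 9.98% of all genes tested, and the list median was 0.04 on the log2 scale. The gene that fell was SMYD1, a muscle methyltransferase that acts with UNC45B and HSP90 in myosin assembly. SMYD1 stood at 123, 121 and 136 CPM in yak and at 28.2, 31.6 and 38.4 CPM in cattle-yak, at -1.95 ± 0.19 (edgeR adjusted p = 1.7e-05). The gene that rose was FKBP5, a co-chaperone of steroid receptors and a known target of the glucocorticoid receptor. FKBP5 stood at 20.2, 40.6 and 25.7 CPM in yak and at 160, 94.7 and 134 CPM in cattle-yak, at 2.16 ± 0.27 (edgeR adjusted p = 2.7e-04). PTGES3, with most reads in the list, had 190 ± 12.6 and 184 ± 22.3 CPM. TRAP1, the mitochondrial HSP90, did not pass at -1.12 ± 0.35 (edgeR adjusted p = 0.058).

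The small heat shock proteins HSPB2, HSPB3, HSPB6 and HSPB7 gave no call. HSPB6, which has most reads of all 76 genes and is abundant in muscle, stood at 1542, 1069 and 1530 CPM in yak and at 1396, 1096 and 1378 CPM in cattle-yak. Library 2 was the lowest in both groups, and the log2 fold change came to -0.10 ± 0.18 (edgeR adjusted p = 0.79). HSPB7, a heart and skeletal muscle form, stood at 139, 116 and 244 CPM in yak and at 140, 135 and 137 CPM in cattle-yak, so that yak 3 alone was apart from 5 libraries within 116 to 140 CPM. HSPB3 was higher in every cattle-yak library (14.5, 12.5 and 19.8 against 20.5, 23.6 and 23.0 CPM) and did not pass, at 0.52 ± 0.25 (edgeR adjusted p = 0.22). In a list of 6 genes of small heat shock proteins and assisted autophagy outside the chosen 76, CRYAB alone passed (16.7%, against 9.98% of all genes tested). CRYAB, the small heat shock protein of desmin and the Z-disc, stood at 742, 877 and 899 CPM in yak and at 3127, 2249 and 1928 CPM in cattle-yak, at 1.54 ± 0.19 (edgeR adjusted p = 1.7e-04).

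The chaperonins gave no call at the level of genes. HSPE1, the lid of the mitochondrial chaperonin, stood at 236, 299 and 254 CPM in yak and at 328, 316 and 334 CPM in cattle-yak. The groups did not overlap, at 0.31 ± 0.16 (edgeR adjusted p = 0.25), and 11.8% of its reads lay in rows carrying the symbol. HSPD1, its barrel, had 134 ± 16.2 and 139 ± 13.6 CPM. Of the CCT subunits, CCT2 stood at 128, 133 and 136 CPM in yak and at 201, 166 and 163 CPM in cattle-yak, without overlap, at 0.41 ± 0.16 (edgeR adjusted p = 0.13). CCT7 had 134 ± 14.0 and 129 ± 12.6 CPM, and CCT3 had 77.1 ± 11.8 and 94.1 ± 18.9 CPM. The 7 tested CCT genes lay between -0.25 (CCT5) and 0.41 on the log2 scale, 4 of them positive and 3 negative. TCP1, a subunit of the same ring whose symbol lay outside the chosen names, was lower still, at -0.40 ± 0.18 (edgeR adjusted p = 0.18). It stood at 121, 108 and 122 CPM in yak and at 107, 75.3 and 85.4 CPM in cattle-yak, without overlap. CCT8L2, a further gene of the CCT name pattern, had 2 reads.

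None of the 4 tested BAG genes passed. BAG6, which guards newly made membrane proteins, was higher in every cattle-yak library (24.2, 24.6 and 29.7 against 37.1, 43.4 and 30.5 CPM), at 0.50 ± 0.22 (edgeR adjusted p = 0.16). BAG2, an inhibitor of the ubiquitin ligase CHIP, stood at 72.2, 77.8 and 71.1 CPM in yak and at 99.3, 34.6 and 73.9 CPM in cattle-yak. The yak libraries were close together, while the cattle-yak libraries lay on both sides of them. BAG4, at the minimum of reads, had 5, 4 and 7 reads in yak and 6, 4 and 5 reads in cattle-yak. DNAJC28, just below it, had 6, 4 and 10 reads in yak and 1, 4 and 4 reads in cattle-yak.

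In 3 further lists no gene passed edgeR's test: 7 tested HSP70 partners, 10 prefoldin and chaperonin genes with TCP1 among them, and 9 folding genes of the endoplasmic reticulum. At an unadjusted p under 0.05 each list held 2 genes, where 25.1% of all genes tested did, and DESeq2 and limma-voom called 0 in each. The genes with most reads in them were ST13, VBP1 and CALR. ST13, which stabilises HSP70 bound to client, stood at 297, 276 and 280 CPM in yak and at 257, 150 and 181 CPM in cattle-yak, at -0.54 ± 0.19 (edgeR adjusted p = 0.092). It passed without cattle-yak 1, at -0.76 (edgeR adjusted p = 0.017), and with no minimum of reads (0.038). VBP1, a prefoldin subunit, had 172 ± 5.84 and 140 ± 21.6 CPM. CALR, a lectin chaperone, had 140 ± 24.1 and 193 ± 28.6 CPM, at 0.46 ± 0.18 (edgeR adjusted p = 0.13), and passed at library size alone (0.035).

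At the level of single transcripts, 372 of the 1869 chaperone transcripts had at least 30 reads, and 25 of them passed, 16 higher and 9 lower, in 13 genes. That is 6.72%, against 12.8% of all 27036 transcripts tested, 6.52% higher and 6.27% lower. None of the 372 lacked reads in a whole group, while over all transcripts 0.374% had no read in yak and 0.0111% had none in cattle-yak. Of the 25, 11 moved the same way as a gene that passed and 14 lay in genes that did not. Without yak 1, 2 or 3, 14, 16 and 13 transcripts passed, of which 13, 12 and 10 were among the 25. Without cattle-yak 1, 2 or 3, 18, 17 and 21 passed, of which 16, 11 and 17 were among the 25. In the fit of all libraries, HSP90AA1 and HSP90AB1 held 7 of the 25, all higher, out of 58 HSP90 transcripts tested (12.1%). Over 9 other settings, those of HSP90AA1 passed in 9, 8 and 6, and those of HSP90AB1 in 8, 7, 4 and 2. Each of the 7 was a minor form. The one with most reads, TALONT000334779 of HSP90AA1, rose from 1.87% ± 0.237 to 3.49% ± 0.402 of the gene's reads (SD, n = 3), at 1.25 ± 0.27 (edgeR adjusted p = 0.0049). CCT2 had a transcript, TALONT001279365, with 114, 90 and 107 reads in yak and 220, 237 and 215 reads in cattle-yak, at 0.91 ± 0.21 (edgeR adjusted p = 0.0076; 0.051 without yak 2). HSPA9's reference transcript, ENSBGRT00000007804, fell by 0.82 on the log2 scale (edgeR adjusted p = 0.020), from 62.0% ± 0.943 to 48.0% ± 3.47 of the gene's reads. Leaving out yak 2, yak 3 or cattle-yak 2 ended that call (edgeR adjusted p up to 0.097). By edgeR's test of transcript usage the change in share did not pass for HSPA9 (adjusted p = 0.25), nor for CCT2 (0.070). UNC45B's transcript with most reads, TALONT001542855, fell by 1.47 (edgeR adjusted p = 0.0057) and passed in every fit without 1 library.

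DNAJB5 was the only 1 of 44 chaperone genes whose transcripts changed in share (2.27%, where 5.38% of 2863 genes did), by edgeR's test of transcript usage (adjusted p = 0.0030). The transcript TALONT001450274 held 71.2%, 57.1% and 53.2% of DNAJB5 reads in the yak libraries and 24.7%, 29.5% and 33.8% in the cattle-yak libraries. It was the leading form in every yak library and in no cattle-yak library. In cattle-yak the leading form was TALONT001450267, with 46.2%, 40.5% and 37.5% of reads, against 17.6%, 30.4% and 30.7% in yak. TALONT001450277 went from 6.87% ± 3.13 to 18.6% ± 1.39, and TALONT001450273 from 6.37% ± 1.42 to 10.5% ± 1.16. The last 3 were also higher as transcripts, by 1.38 ± 0.27, 2.12 ± 0.36 and 1.41 ± 0.34 on the log2 scale (edgeR adjusted p = 0.0027, 8.5e-04 and 0.010). TALONT001450274, the form that led in yak, did not pass as a transcript in either direction. TALONT001450273 did not pass without yak 2 (edgeR adjusted p = 0.059). The change in share passed without each library in turn (edgeR adjusted p = 0.0010 to 0.034) and in every other setting tried. In BAG2, TALONT000639723 held 66.3% ± 11.3 of reads in yak and 40.6% ± 10.7 in cattle-yak, and the usage test did not pass (edgeR adjusted p = 0.090).

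**Figure D5:**
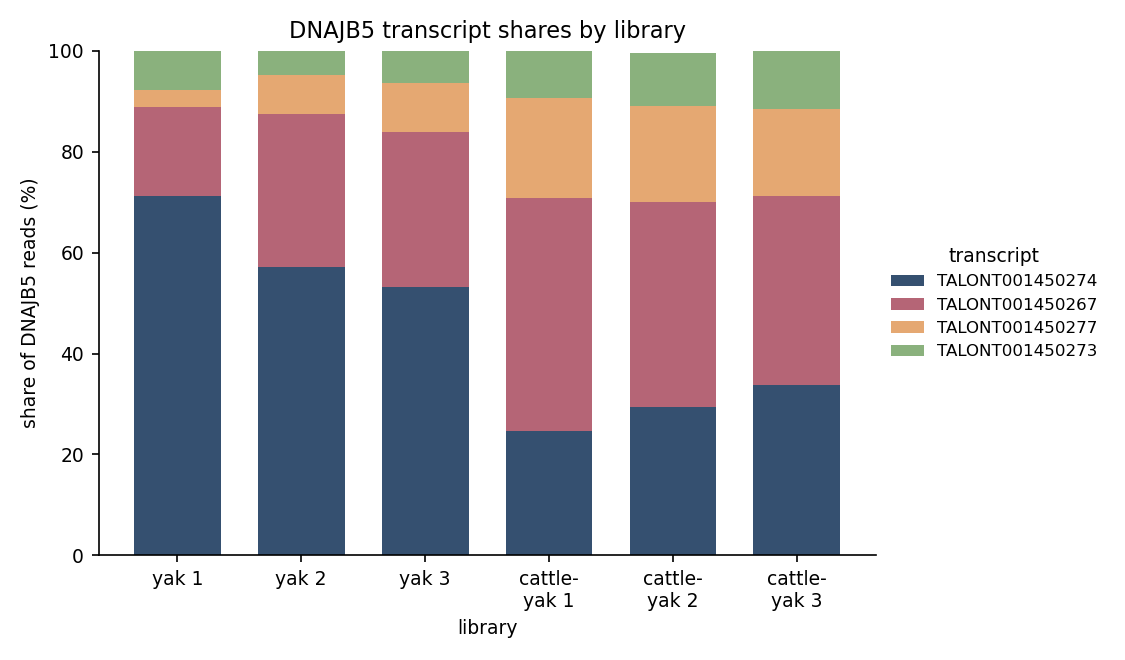
Share of DNAJB5 reads (percent, vertical axis) held by each of its 4 tested transcripts, by library. The form that leads in yak, at 53.2% to 71.2%, holds 24.7% to 33.8% in cattle-yak.

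Several values rest on how reads were assigned. Besides DNAJA1, HSPA2 and STIP1, 5 genes had a second identifier of at least 30 reads under the same symbol: HSPA6, HSP90AA1, DNAJC2, DNAJC19 and HSPE1. That of HSP90AA1 had 3 reads in yak, all in yak 3, and 33 in cattle-yak, a ratio of 10.6 (95% exact interval 3.33 to 54.2, counting error only), beside 13943 reads at the main identifier. That of HSPA6 had 24, 0 and 6 reads in yak and 0, 2 and 0 reads in cattle-yak, with yak 1 highest as at the main identifier. In 8 tested genes less than 50% of reads lay in rows carrying the gene's own symbol, DNAJB1 and HSPE1 among them. In the RefSeq annotation of assembly Bosgru_T2T1.0, 72 of the 76 genes were matched by symbol and 16 overlapped another protein-coding gene, among them DNAJB5 with SPATA31F3, DNAJB4 with FUBP1, HSPA9 with CTNNA1 and HSPD1 with HSPE1. The sources used here do not say whether strand was used in counting, so reads of such pairs may be mixed. Reads of cattle-yak can also come from cattle sequence. Whether that moved reads between identifiers or between transcripts, those of DNAJB5 included, was not tested.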

How the data were processed

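TRIzol-extracted total RNA of the muscle went into nanopore cDNA-PCR libraries, per the labels' protocols. Tools listed by the submitters' processing notes are minimap2, fastp and GSNAP, with no version. The sources used here name no genome build or counting software, so no coordinates are printed. The deposited values are raw read counts of each transcript and CPM, made by the authors from the counts over the library total (equal within 0.005). Counts of all rows of a gene identifier were summed, and 61 transcripts without one (at most 0.0025% of a library) were left out.

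Genes, and transcripts, with at least 30 pooled reads were tested in R 4.3.3 with edgeR 4.0.16 (TMM, quasi-likelihood, robust dispersion), adjusting over all of them at 0.05. SE is the size of the log2 fold change divided by the square root of F. Usage was tested with diffSpliceDGE on such transcripts with a share of 5% or more of the gene, in genes with 2 or more. DESeq2 1.42.0, limma-voom (limma 3.58.1), other scalings and filters, a replicate block, summed identifiers, symbol-bearing rows alone and fits without each library were alternatives. The tests were first run on simulated counts with known changes in features of at least 100 reads (genes and transcripts). A log2 change of 1 was recovered for 35% of changed genes and 18% of changed transcripts, and a change of 2 for 96% and 88%. In the usage test a log2 change of 2 in a gene's leading transcript was recovered for 43%. Python 3.11.15, matplotlib 3.10.9 and pandas 2.3.3 were used for plots and tables.

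Named genes were every gene that passed, the 2 with most reads of each family, those at the minimum of reads, those with a transcript or usage call, and from each list the genes that passed and the one with most reads. Others are named where a count or an overlap turns on them. The genes, the lists and the tests were chosen with earlier results of these data known.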

Additional observations from a re-analysis of the deposited data

How the results depend on the processing

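With 1 library left out at a time, 539 to 998 genes passed over all genes (1038 with all libraries), of which 516 to 773 were among the 1038. The counts were 2 to 5 for chaperone genes, 2 to 4 of them among the 7, and 13 to 21 for chaperone transcripts, 10 to 17 of them among the 25. Changed transcript usage was called in 1 to 3 chaperone genes, always with DNAJB5 (DNAJC24 joined without yak 2, HSPA4 without yak 3, and CCT2 and DNAJC24 without cattle-yak 1). The count over all genes was 655 without yak 1, 623 without yak 2 and 539 without yak 3. Counting only rows that carry the symbol left 4 chaperone genes (DNAJA1, DNAJB1, DNAJB5 and UNC45B). Changed usage was called in 2 chaperone genes with edgeR's own expression filter (CCT2 and DNAJB5) and in 2 with the replicate block (BAG2 and DNAJB5). Same-numbered libraries deviated from their group means with correlations of -0.04, -0.01 and 0.01, so the numbers were not taken to pair them. The replicate block otherwise gave 1011 genes, 7 chaperone genes (without DNAJC1, with HSPA6) and 22 chaperone transcripts. Every other setting stayed within 1.5 times of the main count, at 744 (limma-voom) to 1417 (no minimum of reads) for all genes and 5 to 8 for chaperone genes. Of 523 values of named genes under these settings, 452 kept their direction and their side of the threshold, 43 lost a call and 8 gained one. A further 20, none of them called, changed sign, and 0 called values did. The calls of FKBP5, SMYD1 and CRYAB held in all 14 settings run on them. At 3 libraries a group and down to 30 reads a gene, many changes of 1 on the log2 scale, and smaller ones, may be missed. A gene that did not pass is not shown to be alike in both groups.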
